A study of Mus musculus with 9 samples.

Results

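The carbonic anhydrase genes described here are Car2, Car3, Car5b, Car8, Car12, Car13 and Car14, 7 of the 16 genes of this family and of the 18738 genes in the table. They were found by gene symbol, with Car3 as the lead gene. The set was chosen by its measured TPM in the 9 libraries, so the members' differences between diets are a description and carry no test. The libraries are RNA-seq of cardiomyocytes isolated on postnatal day 0 (P0) from wild-type C57BL/6J mice. Through pregnancy, from fertilization until birth, mothers were fed normally (ND, normal diet), on a diet the labels call slight high fat (sHFD), or on a high-fat diet (HFD), and each diet has 3 libraries. All pups thus share strain, genotype and age and differ by the maternal diet, and nothing in the labels says whether libraries of a diet came from separate litters, separate pups or pools. The p-values below measure only the spread between these libraries, which may be technical.

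Carbonic anhydrases are zinc enzymes that interconvert carbon dioxide and bicarbonate with release or uptake of a proton. In heart muscle this reaction helps respiratory carbon dioxide leave the cell and feeds bicarbonate and protons to the exchangers that set intracellular pH. The members differ in where they work: Car2, Car3 and Car13 are cytosolic, Car5b is mitochondrial, Car12 and Car14 are membrane proteins with the active site outside the cell, and Car8 is a related protein without catalytic activity that binds the inositol trisphosphate receptor.

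Promoter sequences from RefSeq (GRCm38.p6) matched 3 of the 7 members, Car5b, Car12 and Car14, and 8 of the 9 other family genes. The 250 bases before a start given in that table are shown for Car14, the most abundant member, and for Car9, a membrane enzyme outside the member set that is a textbook target of hypoxia-inducible factor. The start of Car14 used there lies inside the gene's annotated span, so the window belongs to that start and not to the gene's outer end. Capitals mark ACGTG, the core of the hypoxia response element, read on either strand.
Car14, chr3:95904686-95904935, minus strand: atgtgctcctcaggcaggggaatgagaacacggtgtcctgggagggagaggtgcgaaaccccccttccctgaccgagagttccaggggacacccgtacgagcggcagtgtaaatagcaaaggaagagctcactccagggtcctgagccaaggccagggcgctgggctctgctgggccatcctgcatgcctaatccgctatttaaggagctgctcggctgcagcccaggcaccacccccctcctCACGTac
Car9, chr4:43506776-43507025, plus strand: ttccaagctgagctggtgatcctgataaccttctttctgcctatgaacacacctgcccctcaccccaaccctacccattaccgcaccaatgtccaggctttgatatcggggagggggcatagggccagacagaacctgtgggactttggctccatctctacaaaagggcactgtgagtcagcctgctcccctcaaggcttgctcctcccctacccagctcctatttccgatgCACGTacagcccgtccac
In both the match lies on the opposite strand, and its farther end is 7 bases before the start in Car14 and 18 bases before it in Car9. ACGTG occurred on either strand in 16.6% of 32851 promoter windows of the same length. Neither window held AGGTCA, the nuclear receptor half-site, which occurred in 14% of windows, or the GC box GGGCGG, which occurred in 32.7%. The windows of Car5b and Car12 held neither AGGTCA nor ACGTG, and they held 2 and 1 GC boxes. A match is a description of the letters and not evidence of a bound factor.

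Values are TPM, a transcript abundance corrected for transcript length and scaled to the same total in each library, so levels can be compared between genes. Read depth is not recoverable from TPM and is unknown. Cardiomyocyte markers were abundant in every library, the 10 listed genes such as Tnnt2 and Myh6 summing to 23180 to 40375 TPM in ND, 39948 to 54388 TPM in sHFD and 27747 to 34999 TPM in HFD, and markers of endothelium, fibroblasts, macrophages and red cells were also present. HFD thus lay wholly below sHFD in this sum, and 2 of the 10 genes fell in HFD vs sHFD, the myosin light chain gene Myl2 and the calcium pump regulator gene Pln. Their part in the differences below was not tested. ND replicate 1 stood apart from its group, with a mean correlation over tested genes of 0.980 with the HFD libraries and 0.962 with the other ND libraries. Differences are on the log2(TPM + 1) scale from a limma fit to 13655 genes, where the median gene differed by -0.14 in HFD vs ND, 0.00 in sHFD vs ND and -0.16 in HFD vs sHFD. Of the members, 6 of 7 passed the filter of a mean of at least 1 TPM, and Car12 did not.

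Car14 was the most abundant member in each diet, and the order below it changed at Car3. In ND the mean levels ran from Car14 (63.0 TPM) through Car8 (18.3 TPM), Car3 (15.98 TPM), Car2 (8.82 TPM), Car13 (4.14 TPM) and Car5b (2.42 TPM) to Car12 (0.96 TPM). Libraries of neighbours in this order overlapped for Car8 with Car3 and for Car13 with Car5b, and Car2 and Car13 were parted by only 5.83 against 5.82 TPM. In sHFD the order was the same, with overlap of Car8 with Car3 and of Car5b with Car12. In HFD Car3 stood at rank 6, below Car5b, and overlapped with Car12 alone. Set against all 18738 genes, Car14's mean over the 9 libraries lay at percentile 84.2 and those of the other members between percentiles 26.4 and 55.2.

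**Figure D1:**
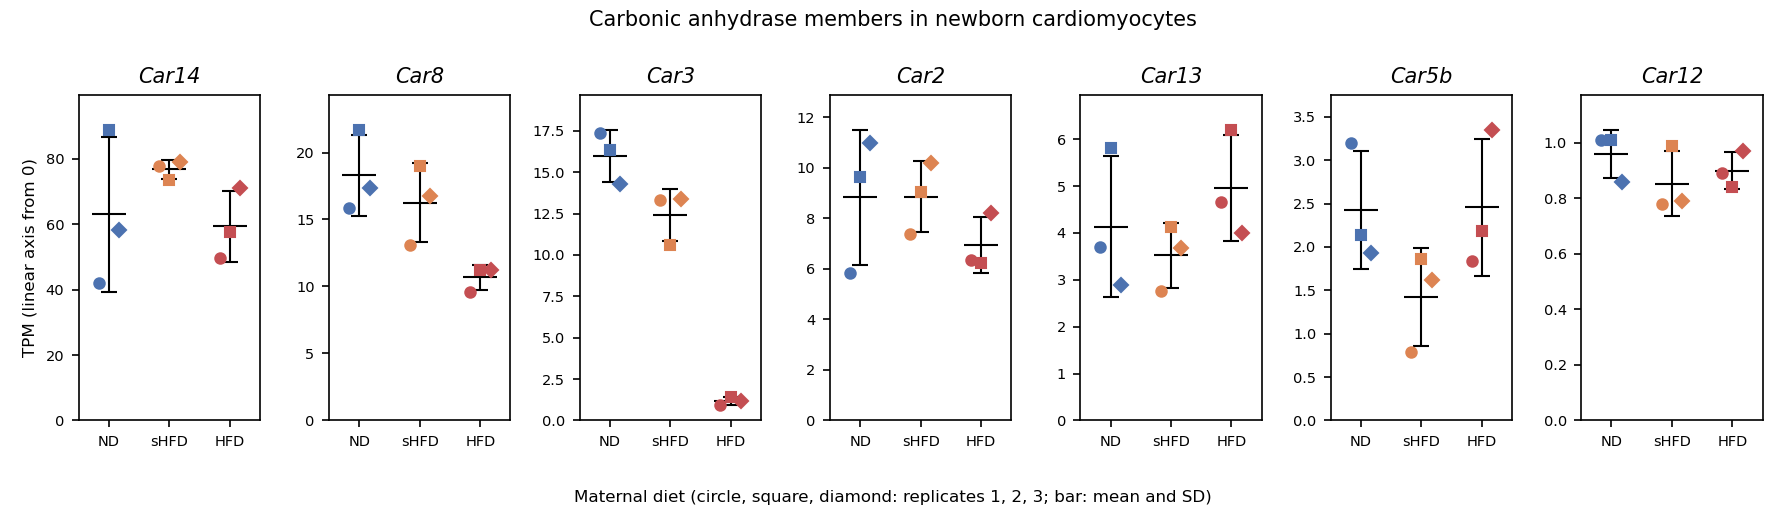
TPM of the 7 members on linear axes from 0, each with its own scale, by maternal diet (circle, square and diamond: replicates 1, 2 and 3; bar: mean and SD of 3 libraries). The 3 HFD libraries of Car3 sit between 0.94 and 1.41 TPM against 10.59 to 17.36 TPM in the other 6 libraries, and the diets overlap in most other panels.

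Car3, a cytosolic enzyme of low catalytic activity that is abundant in slow skeletal muscle and fat cells, was nearly absent from the HFD libraries. It was 17.36, 16.32 and 14.26 TPM in ND replicates 1 to 3, 13.30, 10.59 and 13.35 TPM in sHFD, and 0.94, 1.41 and 1.19 TPM in HFD. The 3 diets did not overlap in any pairing, and the gap between sHFD and HFD was far wider than that between ND and sHFD. The HFD mean was 7.38% of the ND mean and 9.51% of the sHFD mean, and the sHFD mean was 77.7% of the ND mean. The log2 difference was -2.96 (SE 0.19) in HFD vs ND, -2.62 (SE 0.19) in HFD vs sHFD and -0.34 (SE 0.19) in sHFD vs ND. ND replicate 1, the ND library nearest to HFD over all genes, had the highest Car3 level of the series, and without it the difference in HFD vs ND was -2.90. In bulk samples fewer cells of a type and less RNA per cell cannot be told apart.

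Markers of other cells in which Car3 is abundant were read beside it. The fat-cell markers Adipoq, Plin1, Ucp1 and Lep did not exceed 1.17, 0.42, 0.60 and 0.10 TPM in any library. Cidec, Cfd, Adig and Retn did not exceed 0.39, 1.41, 0.79 and 0.30 TPM. Other listed genes were clearly present in every library. Cidea ran from 12.45 to 29.94 TPM, Pparg from 22.67 to 41.58 TPM and Lipe from 11.98 to 48.29 TPM. Dgat2 ran from 21.31 to 82.63 TPM and Agpat2 from 11.06 to 26.88 TPM. Of the 14 listed fat-cell genes, 0 were at 0 in all libraries. The list summed to 3059 to 6123 TPM in ND, 3785 to 5740 TPM in sHFD and 3577 to 3976 TPM in HFD, nearly all of it Fabp4, a fatty acid carrier that endothelium also makes. Of its 6 genes tested, 2 fell in HFD vs ND, the lipase gene Lipe and the acyltransferase gene Agpat2, and 4 fell in HFD vs sHFD, these with Cidea and Dgat2. The skeletal muscle list summed to 218 to 248 TPM in ND, 141 to 271 TPM in sHFD and 221 to 419 TPM in HFD, mostly Myl1, with Myog at most 0.45 TPM and 0 of its 13 genes in the table at 0 in all libraries. Of its 6 genes tested, 1 rose in HFD vs ND, Myh8, the perinatal myosin heavy chain, and 2 rose in HFD vs sHFD. The part of the fat-cell genes that fell in the Car3 difference was not tested.

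Car2, the cytosolic enzyme of high activity known from red cells, showed a smaller range than Car3. It was 5.83, 9.64 and 10.99 TPM in ND, 7.37, 9.02 and 10.17 TPM in sHFD, and 6.36, 6.22 and 8.22 TPM in HFD. The diets overlapped in every comparison, and ND replicate 1 was the lowest of all. The log2 difference was -0.28 (SE 0.24) in HFD vs ND and -0.31 (SE 0.24) in HFD vs sHFD, and under quantile normalization both had the opposite sign (0.03 and 0.04). In sHFD vs ND it was 0.03 (SE 0.24), with the opposite sign under quantile normalization (-0.01) and without ND replicate 1 (-0.21) or sHFD replicate 3 (-0.06). Red-cell markers summed to 8053 to 18769 TPM in ND, 9314 to 12975 TPM in sHFD and 4257 to 7722 TPM in HFD, with 0 of the 11 listed genes in the table at 0 in all libraries. Of 9 such genes tested, 1 fell in HFD vs ND, 6 fell in HFD vs sHFD, and their part in the Car2 values was not tested.

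Car13, a further cytosolic enzyme, was 3.69, 5.82 and 2.90 TPM in ND, 2.77, 4.13 and 3.67 TPM in sHFD, and 4.67, 6.20 and 3.99 TPM in HFD. The ND libraries spanned most of the range of the series, and HFD overlapped with both other diets. Its log2 difference was 0.24 (SE 0.25) in HFD vs ND, 0.39 (SE 0.25) in HFD vs sHFD and -0.16 (SE 0.25) in sHFD vs ND. Under quantile normalization the first pair were 0.58 and 0.73, and without ND replicate 2 the last was 0.07.

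Car13, Car1, Car3 and Car2 lie in this order on chromosome 3, and of these Car2 and Car13 overlapped between HFD and ND where Car3 did not. Car3 spans chr3:14863538-14872381 and Car2 spans chr3:14886269-14900770, which leaves 13.9 kb between them. Car13 spans chr3:14641727-14663002, 201 kb from Car3. Between them lies Car1, the red-cell carbonic anhydrase, at chr3:14766214-14808365, which was 0.27, 0 and 0.46 TPM in ND, 0.52, 0.14 and 0.56 TPM in sHFD, and listed at 0 in the 3 HFD libraries. Beyond Car13, Rbis had means of 80.5, 81.3 and 59.1 TPM in ND, sHFD and HFD, with all HFD libraries (47.93 to 64.95 TPM) below all sHFD libraries (68.06 to 91.86 TPM) and overlapping with ND. The transcription factor gene E2f5 had means of 17.6, 14.1 and 17.5 TPM, and Lrrcc1 had means of 11.42, 11.05 and 11.35 TPM. Car3 shares 528 bases with a long noncoding gene, Gm41999, that is not analysed here, and reads in an overlap cannot be assigned without strand.

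**Figure D2:**
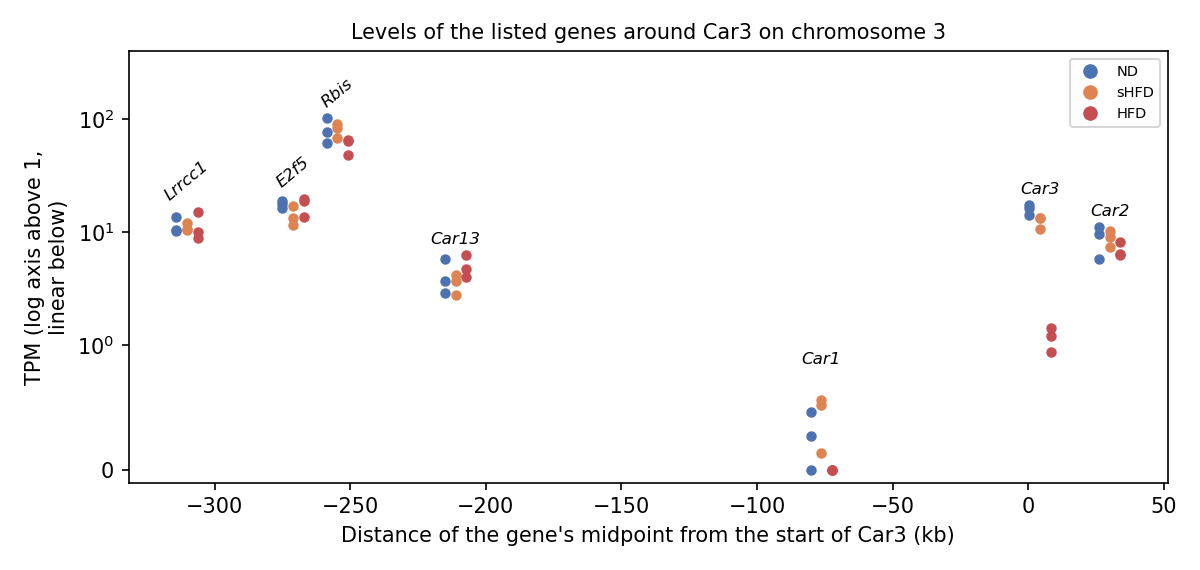
TPM in each library (log axis above 1, linear below) of the listed genes within 300 kb of Car3, by distance of the gene's midpoint from the start of Car3 in kb, with the diets drawn side by side. Car3 sits at 10.59 TPM or more in ND and sHFD and at 1.41 TPM or less in HFD, while Car2 and Car13 overlap between diets.

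Car5b, the mitochondrial enzyme, which supplies bicarbonate to carboxylases, was lowest in sHFD. It was 3.20, 2.14 and 1.93 TPM in ND, 0.79, 1.86 and 1.62 TPM in sHFD, and 1.84, 2.18 and 3.35 TPM in HFD. All sHFD libraries were below all ND libraries, by 1.86 against 1.93 TPM at the nearest, and HFD overlapped with both. The log2 difference was -0.51 (SE 0.26) in sHFD vs ND, 0.01 (SE 0.26) in HFD vs ND and 0.52 (SE 0.26) in HFD vs sHFD. In HFD vs ND it had the opposite sign without ND replicate 2 (-0.05), ND replicate 3 (-0.10) or HFD replicate 3 (-0.17). Car5b lies on chromosome X (163976822 to 164028010) and overlaps the noncoding gene Gm38561 over 7012 bases.

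Car8, the member without catalytic activity, was lower in HFD than in either other diet. It was 15.83, 21.69 and 17.38 TPM in ND, 13.08, 18.98 and 16.74 TPM in sHFD, and 9.61, 11.23 and 11.23 TPM in HFD. The HFD libraries lay below all others, and ND and sHFD overlapped. The log2 difference was -0.72 (SE 0.20) in HFD vs ND, -0.55 (SE 0.20) in HFD vs sHFD and -0.16 (SE 0.20) in sHFD vs ND. Without ND replicate 1 the first of these was -0.81, and under quantile normalization they were -0.47, -0.26 and -0.22. Itpr1, the inositol trisphosphate receptor that Car8 binds, was 42.83, 56.55 and 43.49 TPM in ND and 25.88, 26.77 and 44.38 TPM in HFD, and did not pass (log2 -0.58, SE 0.23, limma adjusted p = 0.108), except without HFD replicate 3 (adjusted p = 0.0277). Itpr2, another receptor of this family, had a log2 difference of -0.10 (SE 0.20, limma adjusted p = 0.784), which was 0.06 under median-ratio scaling. None of the 3 receptor genes tested passed in the fit of all libraries, where Itpr1 in HFD vs sHFD had a log2 difference of -0.60 (limma adjusted p = 0.0559), and it passed without ND replicate 1, ND replicate 2 or HFD replicate 3 (adjusted p = 0.0471, 0.0426 and 0.0129), under quantile normalization (adjusted p = 0.0418) and with only the 2 diets in the fit (adjusted p = 0.0445).

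Car14, a membrane enzyme of the heart muscle cell surface, varied most within ND. It was 42.03, 88.84 and 58.20 TPM in ND, 77.83, 73.46 and 78.99 TPM in sHFD, and 49.52, 57.61 and 71.00 TPM in HFD. The ND libraries enclosed those of both other diets, with ND replicate 1 the lowest and ND replicate 2 the highest of the series, and all HFD libraries were below all sHFD libraries. The log2 difference was -0.03 (SE 0.23) in HFD vs ND, -0.38 (SE 0.23) in HFD vs sHFD and 0.35 (SE 0.23) in sHFD vs ND. The sign in HFD vs ND was the opposite under median-ratio scaling (0.12) and without ND replicate 2 (0.24) or HFD replicate 1 (0.09), and without ND replicate 1 the differences in HFD vs ND and sHFD vs ND were -0.29 and 0.09. Car14 shares 825 bases with the protein-coding gene Aph1a, so that reads there are uncertain. Car12, the other membrane member, was between 0.78 and 1.01 TPM in all libraries, with every pair of diets overlapping.

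By the calls of the fit over all genes, Car3 and Car8 were 2 of the 6 members tested that passed in HFD vs ND, both lower, where 10.9% of all genes passed, 9.59% as lower and 1.28% as higher. The same genes were 2 of 6 in HFD vs sHFD, where 34.2% of all genes passed, 23.9% as lower and 10.3% as higher. Car3 passed in both comparisons under all 17 alternatives, but Car8 did not pass in 8 of 17 for HFD vs ND and in 10 of 17 for HFD vs sHFD. In HFD vs ND these were no filter, quantile normalization, only the 2 diets in the fit, and fits without ND replicate 2, ND replicate 3, sHFD replicate 3, HFD replicate 1 or HFD replicate 2. In HFD vs sHFD they were a pseudocount of 5 TPM, no filter, both other scalings, and fits without ND replicate 3, sHFD replicate 2 or 3, or any 1 HFD replicate. Car5b passed as higher in HFD vs sHFD under both other scalings, and Car13 under quantile normalization. In sHFD vs ND 0 of 6 passed, against 0.00732% of all genes, which is 1 gene, while 1005 genes had an unadjusted p under 0.05. Shares of all genes, here and below, are of the 13655 tested, and Car12 is not among these. By libraries alone, 2 of 7 members lay wholly lower in HFD than in ND, where 22.9% of all genes did so, 5% lay wholly higher and 27.9% did either. In HFD vs sHFD 3 of 7 lay wholly lower, where 34.7% of all genes did so, 16.6% lay wholly higher and 51.3% did either. In sHFD vs ND 2 of 7 lay wholly lower, where 4.9% of all genes did so, 4.5% lay wholly higher and 9.4% did either. Since the members were chosen with these differences known, nothing is read from the counts. The members' calls, and whether they held under the alternatives, are likewise descriptions and no test of Car3 or Car8. Of all genes, 175 rose and 1309 fell in HFD vs ND and 1406 rose and 3259 fell in HFD vs sHFD, and under median-ratio scaling the splits were 668 and 996, and 2597 and 2622. The total in HFD vs ND was 3837, 626 and 39 without ND replicates 1, 2 and 3, 127 and 31 without HFD replicates 1 and 2, and 875 without sHFD replicate 3. The total in HFD vs sHFD was 3050 and 3079 without sHFD replicates 1 and 3 and 2693 without HFD replicate 2, and that in sHFD vs ND was 358 without ND replicate 2.

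**Figure D3:**
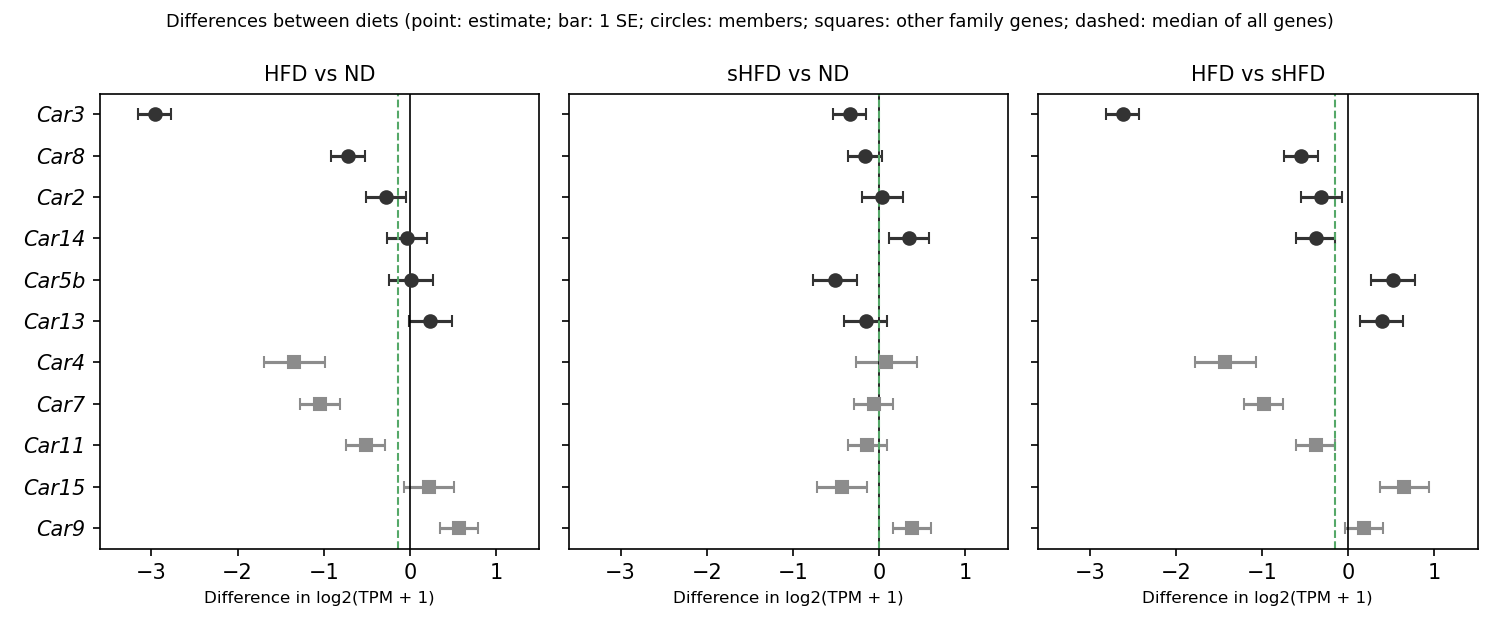
Difference in log2(TPM + 1) between diets for the 6 members tested (circles) and the 5 other family genes tested (squares), with bars of 1 SE and a dashed line at the median of all genes. For HFD vs ND Car3 lies at -2.96, and for HFD vs sHFD at -2.62, both farther from 0 than the other 10 genes.

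The other 9 carbonic anhydrases were read from the same fit, and 5 of them passed the filter. Car4, the membrane-anchored enzyme of heart capillaries and muscle, was 151.59, 88.55 and 179.45 TPM in ND, 163.65, 113.86 and 154.91 TPM in sHFD, and 39.75, 35.02 and 102.66 TPM in HFD. It fell when HFD was set against ND (log2 -1.34, SE 0.35, limma adjusted p = 0.0309) and against sHFD (log2 -1.43, SE 0.35, limma adjusted p = 0.00898). HFD replicate 3 overlapped with ND, and the call in HFD vs ND was lost under median-ratio scaling, with no filter and with only the 2 diets in the fit (adjusted p = 0.0558, 0.0755 and 0.0729) and without ND replicate 3, HFD replicate 1 or HFD replicate 2 (adjusted p = 0.136, 0.111 and 0.143). Endothelial markers summed to 3226 to 4932 TPM in ND, 3199 to 3522 TPM in sHFD and 3523 to 4034 TPM in HFD. None of the 9 genes passed in HFD vs ND, and 1 fell in HFD vs sHFD, the growth factor receptor gene Kdr (319 to 360 TPM in sHFD, 226 to 276 TPM in HFD). Their part in the Car4 difference was not tested.

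Car7, a cytosolic enzyme, was 6.32, 5.83 and 10.26 TPM in ND, 7.51, 5.84 and 7.49 TPM in sHFD, and 3.26, 3.23 and 2.55 TPM in HFD, with HFD below all other libraries. It fell when HFD was set against ND (log2 -1.05, SE 0.23, limma adjusted p = 0.0176) and against sHFD (log2 -0.98, SE 0.23, limma adjusted p = 0.00705). The first call was lost under quantile normalization and with only the 2 diets in the fit (adjusted p = 0.0901 and 0.0511) and without ND replicate 3, HFD replicate 1 or HFD replicate 2 (adjusted p = 0.0928, 0.0614 and 0.0775), and the second under quantile normalization (adjusted p = 0.0799).

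Car9 was 2.14, 2.02 and 2.36 TPM in ND, 2.51, 3.39 and 3.61 TPM in sHFD, and 4.14, 4.56 and 2.67 TPM in HFD. Its ND libraries were below all others, and it did not pass (HFD vs ND log2 0.57, SE 0.22, limma adjusted p = 0.103) except under quantile normalization (adjusted p = 0.0393) and without HFD replicate 3 (adjusted p = 0.0469). Car11, a related protein without catalytic activity, did not pass in HFD vs ND (log2 -0.51, SE 0.22, limma adjusted p = 0.145). Car15, a membrane-anchored enzyme, did not pass in HFD vs sHFD (log2 0.65, SE 0.29, limma adjusted p = 0.0961), but did under median-ratio scaling, under quantile normalization, with only the 2 diets in the fit and without ND replicate 1 (adjusted p = 0.0408, 0.0202, 0.0396 and 0.0424). Car5a, Car6 and Car10 did not exceed 0.85, 0.31 and 0.14 TPM in any library.

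**Figure D4:**
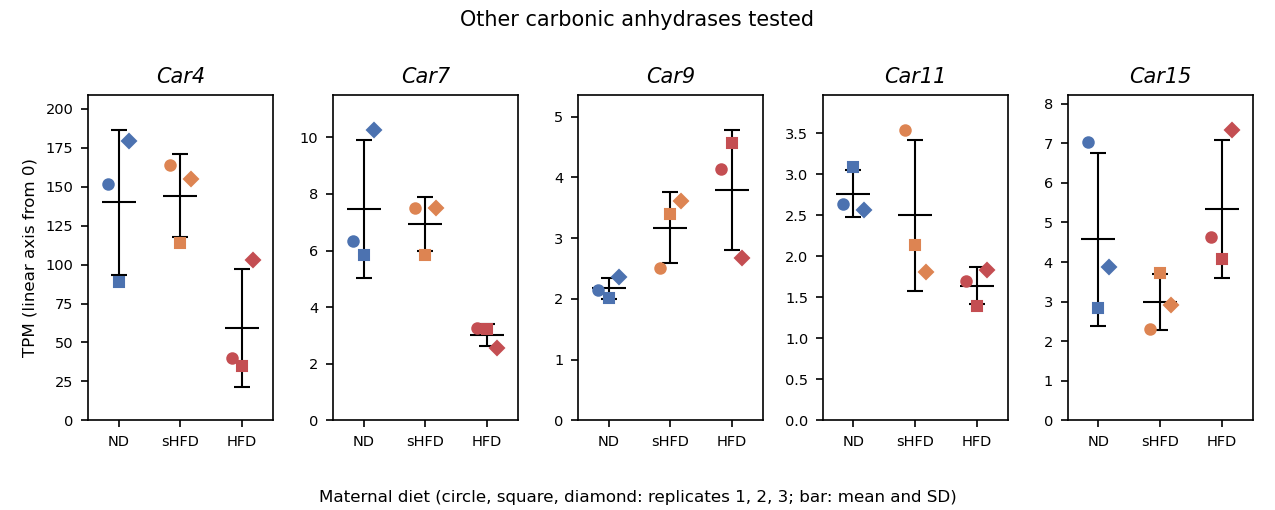
TPM of the 5 other carbonic anhydrases tested, on linear axes from 0 with a scale for each gene, by maternal diet (circle, square and diamond: replicates 1, 2 and 3; bar: mean and SD). Car7 in HFD sits between 2.55 and 3.26 TPM against 5.83 TPM or more elsewhere, and HFD replicate 3 of Car4 (102.66 TPM) overlaps with ND.

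Summed over the family, transcripts came to 271 ± 30.4 TPM in ND, 281 ± 27.7 TPM in sHFD and 160 ± 50.0 TPM in HFD (SD, n = 3 each). Car4 made up 50.9%, 51.0% and 34.8% of these sums on average and Car14 made up 23.7%, 27.4% and 38.1%. Car3 made up 5.97%, 4.41% and 0.778%, and Car8 made up 6.84%, 5.89% and 7.02%. The 7 members alone summed to 114 ± 28.9, 120 ± 4.79 and 86.5 ± 13.1 TPM. In this sum ND and HFD libraries overlapped, while HFD (73.83 to 99.95 TPM) lay wholly below sHFD (115.92 to 125.33 TPM). Markers of some other cells also differed between diets, in both directions. In HFD vs ND 8 of 10 immune genes fell (356 to 482 TPM summed in ND, 239 to 297 TPM in HFD). Of 8 smooth muscle and pericyte genes, 4 fell and 1 rose. None of 9 fibroblast genes passed, 1 of 6 epicardial and 1 of 4 Schwann and neural genes tested rose, and none of 4 airway and cartilage genes passed. The airway and cartilage list summed to 139.35, 33.1 and 31.76 TPM in ND replicates 1 to 3. Its sum was 23.65 to 36.29 TPM in sHFD and 46.61 to 115.33 TPM in HFD. In HFD vs sHFD 7 of 8 smooth muscle and pericyte genes fell and 1 rose, 4 of 10 immune genes fell and 1 rose, 2 of 6 epicardial genes rose, 1 Schwann and neural gene and 1 airway and cartilage gene rose, and none of 9 fibroblast genes passed. The part of these cells in the family's values was not tested.

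**Figure D5:**
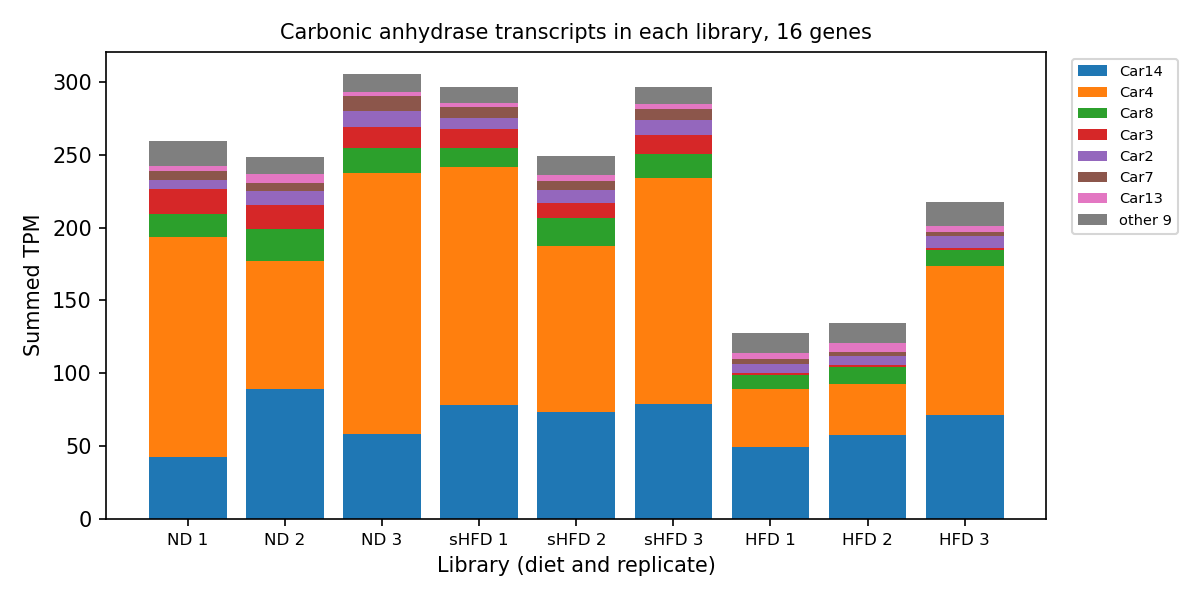
Summed TPM of the 16 carbonic anhydrase genes in each library as stacked bars from 0, coloured by gene. The sum is 249 to 306 TPM in ND, 249 to 297 TPM in sHFD and 128 to 217 TPM in HFD, with Car4 and Car14 the tallest segments throughout.

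Among partners that move bicarbonate, protons, lactate and gases or that use bicarbonate, 40 genes outside the family were tested. Of these 0 rose and 4 fell in HFD vs ND (10.9% of all genes passed), 0 passed in sHFD vs ND by limma, and 2 rose and 13 fell in HFD vs sHFD (34.2% of all genes passed). Their median log2 difference was -0.27, 0.09 and -0.25 in the 3 comparisons, beside -0.14, 0.00 and -0.16 over all genes. The count in HFD vs ND ran from 1 (without ND replicate 3, HFD replicate 1 or HFD replicate 2) to 9 (without ND replicate 1), was 2 without ND replicate 2 and was 7 without HFD replicate 3. The count in HFD vs sHFD was 8, 9 and 9 without sHFD replicates 1, 2 and 3 and 6 without HFD replicate 2.

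Of 8 bicarbonate transporter genes tested, 1 fell in HFD vs ND, and 4 fell and 2 rose in HFD vs sHFD. Slc4a2, an anion exchanger that trades bicarbonate for chloride, was 41.13, 45.42 and 38.59 TPM in ND, 48.57, 56.84 and 39.58 TPM in sHFD, and 23.83, 21.87 and 29.53 TPM in HFD. It fell in HFD vs ND (log2 -0.72, SE 0.18, limma adjusted p = 0.0266), a call lost with only the 2 diets in the fit (adjusted p = 0.058) and without ND replicate 2 or 3 or HFD replicate 1 or 2 (adjusted p = 0.0752, 0.0876, 0.0925 and 0.135), and in HFD vs sHFD (log2 -0.92, SE 0.18, limma adjusted p = 0.00323). The exchanger gene Slc26a6 fell in HFD vs sHFD (log2 -1.03, limma adjusted p = 0.00353), as did Slc4a1, the red-cell anion exchanger (log2 -0.81, limma adjusted p = 0.014), the latter not under quantile normalization (adjusted p = 0.153) or without sHFD replicate 1 or HFD replicate 2 (adjusted p = 0.0593 and 0.0649). Slc4a7, a sodium-bicarbonate cotransporter, and Slc4a11, a membrane transporter of the same family, rose in HFD vs sHFD (log2 1.01 and 1.29, limma adjusted p = 0.0234 and 0.0169). The transporter gene Slc4a3 fell in HFD vs sHFD (log2 -0.77, SE 0.21, limma adjusted p = 0.0148). Slc4a3, Slc4a7 and Slc4a11 were named after their values were seen, and alternatives were not run for them.

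Of 11 sodium-proton exchanger genes and their regulators, 1 fell in HFD vs ND and 5 fell in HFD vs sHFD. Chp2, a calcium-binding cofactor of these exchangers, fell in HFD vs ND (log2 -0.93, limma adjusted p = 0.0437) and HFD vs sHFD (log2 -0.90, limma adjusted p = 0.0211), and the first call held only without ND replicate 1 or HFD replicate 3 among fits leaving out a library, with the highest adjusted p at 0.182 (without ND replicate 3). It was also lost with no filter, under median-ratio scaling, under quantile normalization and with only the 2 diets in the fit (adjusted p = 0.089, 0.0563, 0.113 and 0.0979). The second was lost under quantile normalization (adjusted p = 0.096) and without HFD replicate 1 or 2 or any sHFD replicate (adjusted p = 0.053 to 0.0869). Slc9a8, an exchanger of the Golgi, fell in HFD vs sHFD (log2 -0.72, limma adjusted p = 0.015), not without sHFD replicate 2 or HFD replicate 2 (adjusted p = 0.0604 and 0.0667).

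None of 6 lactate transporter genes passed in the fit of all libraries. Bsg, the chaperone of these transporters, had a log2 difference of -0.05 (SE 0.18, limma adjusted p = 0.883) in HFD vs ND, which was 0.11 under median-ratio scaling. Slc16a1, a transporter that moves lactate with a proton, was 48.28, 93.65 and 51.92 TPM in ND and 93.25, 118.77 and 85.63 TPM in HFD (log2 0.66, SE 0.22, limma adjusted p = 0.0715), and passed with the replicate number as a block (adjusted p = 0.0402), under median-ratio scaling (adjusted p = 0.0336) and without ND replicate 2 (adjusted p = 0.0185).

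Of 8 tested enzymes that use bicarbonate, 1 fell in HFD vs ND, and against sHFD 2 fell. Cad, which starts pyrimidine synthesis from bicarbonate, was 17.04, 26.17 and 17.91 TPM in ND and 10.65, 10.08 and 10.11 TPM in HFD, and fell (log2 -0.90, SE 0.23, limma adjusted p = 0.0295). It also fell in HFD vs sHFD (log2 -1.01, limma adjusted p = 0.00647), while the call in HFD vs ND was lost under quantile normalization, with no filter and with only the 2 diets in the fit (adjusted p = 0.0532, 0.0598 and 0.0511) and without ND replicates 2 or 3 or HFD replicates 1 or 2 (adjusted p = 0.0914, 0.0876, 0.0856 and 0.117). Acacb, the mitochondrial-surface acetyl-CoA carboxylase, fell in HFD vs sHFD (log2 -1.54, SE 0.30, limma adjusted p = 0.00314). Of 4 gas and water channel genes tested, Aqp7, a glycerol channel, fell in both comparisons with HFD (log2 -2.67 and -3.50, limma adjusted p = 0.000795 and 4.54e-05), and Aqp4 fell in HFD vs sHFD (log2 -1.18, limma adjusted p = 0.0264), not under quantile normalization (adjusted p = 0.0669), with no filter (adjusted p = 0.0625) or without sHFD replicates 2 or 3 or HFD replicates 1 or 2 (adjusted p = 0.0872, 0.0664, 0.0929 and 0.0504).

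The pool for genes like Car3 held 10945 genes whose mean reached 5 TPM, without Car3 and without genes with clone or predicted names. The genes most like Car3 in it were sought by Pearson's r of log2(TPM + 1) over the 9 libraries. They were Aplnr, the apelin receptor (r = 0.98), Tppp3 (0.98), Cdk5rap3 (0.98), Tusc2 (0.97) and Stap2 (0.97), with Spearman's rho of 0.73, 0.83, 0.73, 0.48 and 0.57. Their log2 differences in HFD vs ND were -1.38, -1.04, -0.33, -0.40 and -1.40, each smaller in size than that of Car3. Within the family r was 0.90 for Car7, 0.86 for Car8 and 0.79 for Car4. Once each diet's mean was subtracted, r with Car3 was -0.15, -0.20 and 0.05 for these 3 genes. For the 5 above it was -0.11, -0.14, 0.45, -0.27 and -0.47. Apart from Cdk5rap3 (0.45), little or none of the likeness thus remained within diets. The highest r after that step was 0.89 for Il15ra, followed by Sergef, Hspb11, Tmem39b and Caml at 0.84 to 0.88. All such values are descriptions over 9 libraries of 3 diets.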

How the data were processed

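RNA-seq of isolated cardiomyocytes was deposited as 1 table of TPM for 18738 genes in 9 libraries, and the authors' TPM columns each sum to 999999 to 1000001. The submitters' processing notes name RSEM 1.3.1 and the build GRCm38 without a role, while the aligner and the annotation are unstated in these sources. An mRNA isolation step came before fragmentation, per the labels' protocols. TPM keeps no depth, so precision from counting is unknown. The columns CON, MID and HIGH were read as ND, sHFD and HFD from their names, which the labels do not use, their numbers as replicates, and 0 other sample columns were left out. No 2 libraries were identical (0 pairs).

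TPM + 1 was taken to log2, and the 13655 genes whose mean reached 1 TPM were fitted in limma 3.58.1 (R 4.3.3) with diet as the only term, a trend on the variance and 6 residual degrees of freedom. Two-sided p-values had Benjamini-Hochberg adjustment over all genes, and calls needed an adjusted p under 0.05. For a single gene, exact permutation of 3 and 3 libraries reaches no two-sided p below 0.1. The fit was tested on simulated data, where for HFD vs ND it recovered 2 of 67, 33 of 67 and 66 of 66 of 13655 genes changed by a log2 of 0.5, 1 and 2. The simulated noise was normal and independent between genes, with no library set apart and no shift over all genes. Recovery in the real data may therefore differ.

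The members, lists, motifs and tests were chosen with earlier results of these data known. Named genes were all members, the other family genes, up to 3 passing genes with the smallest p in each pathway list and comparison (with none passing, the 2 of highest mean), neighbours of Car3, the genes most like Car3 in r, and markers as values; 1 gene that the rule names is not reported here. Alternatives were other pseudocounts, filters, scalings, a replicate block, fits of 2 diets and leaving out each library. Positions are 1-based, from RefSeq GRCm38.p6 by gene symbol and Entrez number.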

Additional observations from a re-analysis of the deposited data

How the results depend on the processing

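The Car3 difference kept its sign in all 3 comparisons under all 17 alternatives. In HFD vs ND it was -3.66 and -1.76 with pseudocounts of 0.1 and 5 TPM and -2.73 under quantile normalization, and -3.04 to -2.88 with a library left out. In HFD vs sHFD the same values were -3.30, -1.49 and -2.33, and -2.72 to -2.54. In sHFD vs ND it ran from -0.42 to -0.24 over all alternatives. The number of genes passing in HFD vs ND, 1484, was 763 with no filter, 420 with only those 2 diets in the fit and 31 to 3837 with a library left out. In sHFD vs ND, where 1 gene passed, it was 0 with either pseudocount, either filter or the replicate block, 2 with only those diets in the fit and 0 to 358 with a library left out. In HFD vs sHFD, 4665, it was 2693 to 5461 with a library left out and 5616 with only those diets in the fit. Among the 40 partner genes, 4 passing in HFD vs ND became 2 under quantile normalization, 1 with only those diets and 1 to 9 with a library left out. The 0 in sHFD vs ND became 0 to 2, and the 15 in HFD vs sHFD became 6 to 17.

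Differences of Car2, Car5b, Car13 and Car14 that turned sign are given with these genes above. The other genes whose sign turned had not passed. In HFD vs ND, Bsg became 0.11 and Itpr2 became 0.057 under median-ratio scaling, and with a library left out Bsg ran from -0.16 to 0.12, Itpr2 from -0.32 to 0.051 and Car15 from -0.014 to 0.52. In sHFD vs ND, with a library left out, Car4 ran from -0.21 to 0.29, Car7 from -0.20 to 0.16 and Car11 from -0.34 to 0.0074. In HFD vs sHFD, Slc16a1 (0.00) became -0.024 under quantile normalization, and with a library left out it ran from -0.13 to 0.10 and Itpr2 from -0.15 to 0.22. The cause of each shift was not tested. For same-numbered libraries of different diets, r of deviations ran from -0.29 to 0.41 over 9 pairs. For libraries with different numbers it ran from -0.35 to 0.35 over 18 pairs. With 3 libraries per diet, these values cannot show whether the numbers pair samples. With the replicate block 36 of 37 tested gene results kept their call, Slc16a1 in HFD vs ND being the exception, and the passing genes in HFD vs ND numbered 1686. Depth is unknown, so precision at low levels such as Car12 or Car1 cannot be stated.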
